A study of Mus musculus with 21 samples.

Results

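Hematopoietic stem cells (HSC) sorted at week 14 from sedentary mice that had been transplanted with cells of a physically active mouse were compared with HSC sorted at week 12 from sedentary mice that had received no transplant. The comparison used 6 of the 21 RNA-seq libraries of the series, 3 of transplant HSC and 3 of sedentary HSC, chosen by their labels alone. All 6 carry the genotype label MMTV-PyMT, a transgene in which a mammary tumour virus promoter drives the polyoma middle T antigen in mammary epithelium, so that the females develop mammary tumours. The other libraries of the series come from HSC of physically active mice at week 12 and from mammary tumours of sedentary and active mice. The series title concerns a stem cell-autonomous effect of physical activity on the immune response to breast cancer, and the comparison asks how HSC that came from active donors and lived in sedentary hosts differ from HSC of sedentary mice. Donors' activity, the transplantation and the week of sampling differ together between the groups and cannot be told apart. The sort gate, the conditioning of the hosts, the share of donor cells among the sorted cells and the genotype of the donors are not given in the sources used here.

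HSC sit at the top of blood formation and give rise to the myeloid, megakaryocytic, erythroid and lymphoid lineages. On the granulocyte branch, precursors first make the proteases and peroxidase of the primary granules and later, with the transcription factors C/EBP epsilon and GFI1, the antimicrobial proteins of the secondary and tertiary granules. The lymphoid branch opens with the receptor FLT3, the nucleotide-adding enzyme terminal transferase and the RAG recombinase, while many of the most primitive stem cells carry megakaryocyte genes such as Vwf. The sorted cells were sequenced in bulk, so fewer cells of a type and less RNA per cell cannot be told apart.

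In transplant HSC most listed genes of neutrophil granules and of platelets were higher than in sedentary HSC, with 12 of 15 primary granule, 24 of 25 secondary and tertiary granule and 16 of 22 platelet genes called. Of 24 lymphoid priming genes 12 were lower, 1 was higher and 11 did not pass. No ribosomal, respiratory chain or mitosis gene of the lists described below passed by limma. Of 13348 genes tested, 1553 passed the threshold of 0.05 on the adjusted p-value (11.6%), with 1059 higher in transplant HSC (7.93%) and 494 lower (3.7%). The test was limma on log2(normalised count + 1) with Benjamini-Hochberg adjustment over all genes, and every adjusted p-value below comes from it unless another tool is named. A normalised count is a gene's reads divided by a size factor of its library, and fold changes are on the log2(normalised count + 1) scale, which understates changes of low genes. The median log2 fold change was -0.0004 over all genes tested and the median size of the change was 1.26 over the called genes. At least 4-fold changes numbered 310 upward and 94 downward. An unadjusted limma p-value under 0.05 was reached by 4236 of the 13348 genes, against which such counts in the lists below are to be read. Transplant and sedentary values were free of overlap at all 1553 called genes and at 38.8% of all genes tested, 20.3% with transplant HSC above and 18.4% with transplant HSC below. Each called gene also had the same sign in replicate 3 of both groups alone and in each fit without 1 library. The lack of overlap fixes the first and largely fixes the second, so neither adds support.

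**Figure D1:**
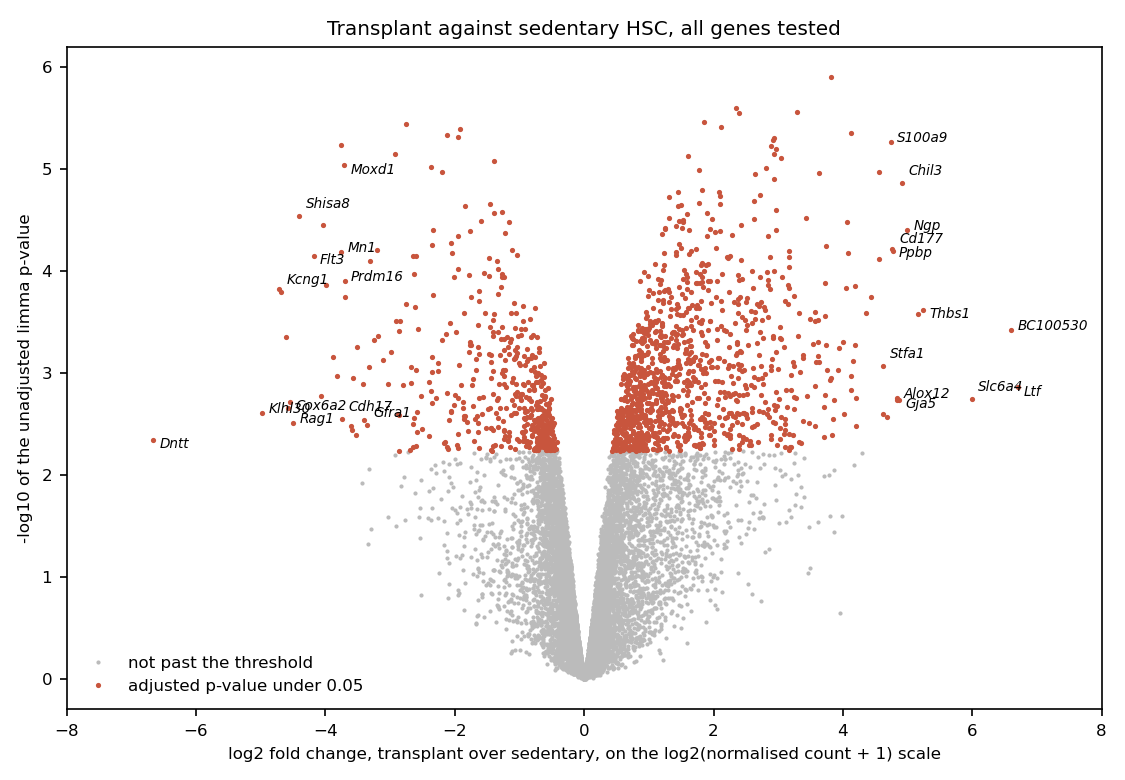
Log2 fold change of transplant over sedentary HSC (x axis) against -log10 of the unadjusted limma p-value (y axis) for the 13348 genes tested, with the 1553 genes past an adjusted p-value of 0.05 in red and the genes named by size of change in italics. The right arm holds 1059 called genes, led by Ltf at 6.70, and the left arm 494, led by Dntt at -6.66.

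Recovered depth ran from 20640799 to 72417315 reads in transplant HSC and from 16406889 to 58500940 in sedentary HSC. Replicate 3 was the deepest library of each group, and its library name holds a letter where the others are numbers. No label names a batch. The first principal component held 57.7% of the variance and separated the groups, and the second held 15.4% and set replicate 3 of both groups apart from the rest. The labels call the replicates biological but do not name the animals, so p-values measure the spread between these libraries. Transplant and sedentary libraries were deposited in separate tables. A pair of active HSC libraries held in both tables had identical reads at all but 4 of 13399 shared symbols (Gm1821, Lars2, Rn45s and Ubb). These 4 genes stayed in the fit, but their changes are not reported below, and only the read share of Rn45s is given.

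The HSC label was checked against marker genes as TPM, in which reads are divided by exon length and each library is scaled to the same total, with genes ranked among 12752. Kit, the receptor for stem cell factor, stood at a mean of 85.8 in sedentary and 93.8 in transplant HSC. Procr, a surface marker of primitive stem cells, was low in both groups, at 5.90 and 4.09. Slamf1, the CD150 marker, was at 1.06 and 3.81, and Fgd5 at 1.13 and 0.31. By contrast Mpo, the myeloperoxidase of primary granules, ranked 31 in sedentary HSC with a mean of 2539 and 3 in transplant HSC with 7783. The proliferation marker Mki67 ranked 383 and 387, at 417 and 409. Cd48, listed below with the lymphoid priming genes, was at 259 and 239, with ranks 693 and 740. Itgam, a chain of the Mac-1 integrin of myeloid cells, was at 29.3 and 219, with ranks 5526 and 815. Ly6a, a member of the stem cell identity list below, was at 145.5 and 104.0, with ranks 1394 and 1980. Cd34 was at 303 and 126, with ranks 582 and 1631. Hlf was at 14.6 and 6.55, and Mecom at 1.52 and 0.65. Both groups therefore held Kit, Ly6a and Cd34, and low levels of Procr, Slamf1, Fgd5, Hlf and Mecom. Granulocyte-precursor and cell-cycle transcripts were abundant next to them on the TPM scale. The word HSC is used below as the labels' name for the sorted cells.

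The largest group of changes was in secondary and tertiary granule genes, of which 24 of 25 tested rose, none fell, and the median log2 fold change was 2.94. Ltf, which encodes the iron-binding protein lactoferrin, had normalised counts of 2436, 3120 and 2666 in the transplant libraries and 3.25, 117 and 34.7 in the sedentary libraries. The groups were far apart for Ltf, and the spread lay within sedentary HSC, where replicate 1 was near 0. Its log2 fold change was 6.70 (SE 1.17, adjusted p = 0.0254). Ngp, a neutrophilic granule protein of the cathelicidin family, stood at 5610, 4981 and 5154 against 82.8, 294 and 178 (log2 fold change 5.0, SE 0.45, adjusted p = 0.00731). S100a9, a subunit of the calcium-binding heterodimer calprotectin, had 7324, 5568 and 8353 against 227, 390 and 198 (4.74, SE 0.30, adjusted p = 0.00496). Its partner S100a8 rose by 4.13 on the log2 scale. In Ngp and S100a9 the lowest transplant library exceeded every sedentary library by a wide margin.

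Further members of the same list moved alike. The list is named for these granules, but not all of its products, such as calprotectin and the stefins, are granule proteins. Chil3, a chitinase-like secreted lectin, rose by 4.92, and Cd177, a neutrophil surface glycoprotein, by 4.78. Camp, the cathelicidin precursor, rose by 4.36 and Lcn2, the siderophore-binding lipocalin 2, by 2.94. Stfa1 and BC100530 rose by 4.63 and 6.61, but these stefin genes have near-identical copies and their reads may be split among them. In BC100530, 2 sedentary libraries held no read. Sedentary HSC were at or under 3 reads in every library for Retnlg, Stfa2 and Orm1, whose fitted fold changes therefore depend on the pseudocount. Transplant HSC were low as well, at 5.61, 7.29 and 1.62 normalised counts for Retnlg. They were at 1.40, 3.64 and 1.62 for Stfa2 and 5.61, 7.29 and 5.68 for Orm1. The fitted changes of these 3 genes lay below the list median, so setting them at their bounds could not move the median of 2.94. Cybb and Cyba, the membrane subunits of the NADPH oxidase, rose by 2.11 and 1.55. Mmp9, the gelatinase of tertiary granules, was the 1 member that did not pass by limma (1.18, adjusted p = 0.499). Of the 25 members tested, edgeR and DESeq2 called 21 each and limma-voom 22.

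Primary granule genes formed a second group, with 12 of 15 higher, none lower and a median of 1.49. Elane, neutrophil elastase, had 39647, 42360 and 47309 normalised counts in transplant HSC and 5931, 4694 and 11613 in sedentary HSC. Its log2 fold change was 2.65 (SE 0.34, adjusted p = 0.0146). Mpo had 181340, 187600 and 238770 against 67252, 51951 and 75297 (1.65, SE 0.19, adjusted p = 0.0113). For both genes all transplant libraries were above all sedentary libraries, and replicate 3 was the highest of its group. Ctsg, cathepsin G, and Prtn3, proteinase 3, rose by 1.44 and 1.09, and Lyz2, lysozyme, by 3.28. The members that did not pass were Ctsc at 0.47, Plac8 at 0.67 and Prss57 at 1.49.

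Among receptors and secreted proteins of mature neutrophils, 11 of 19 rose and none fell, with a median of 1.69. Il1r2, the decoy receptor for interleukin 1, stood at 1584, 1045 and 1029 in transplant HSC and 58.5, 43.8 and 143 in sedentary HSC, a log2 fold change of 4.04 (SE 0.46, adjusted p = 0.0112). The formyl peptide receptor genes Fpr1 and Fpr2 rose by 4.01 and 3.93, and Il1b by 3.35. Csf3r, the receptor for granulocyte colony-stimulating factor, had a log2 fold change of 0.11 (adjusted p = 0.742), and Cxcr2, the receptor that guides neutrophils out of marrow, 0.78 (adjusted p = 0.0529). In replicate 3 alone the medians of the 3 neutrophil lists were 2.68 for secondary and tertiary granules, 1.26 for primary granules and 1.27 for mature neutrophil genes. Neutrophil RNA in the sort was not measured apart from these genes, and its part in the result was not tested.

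**Figure D2:**
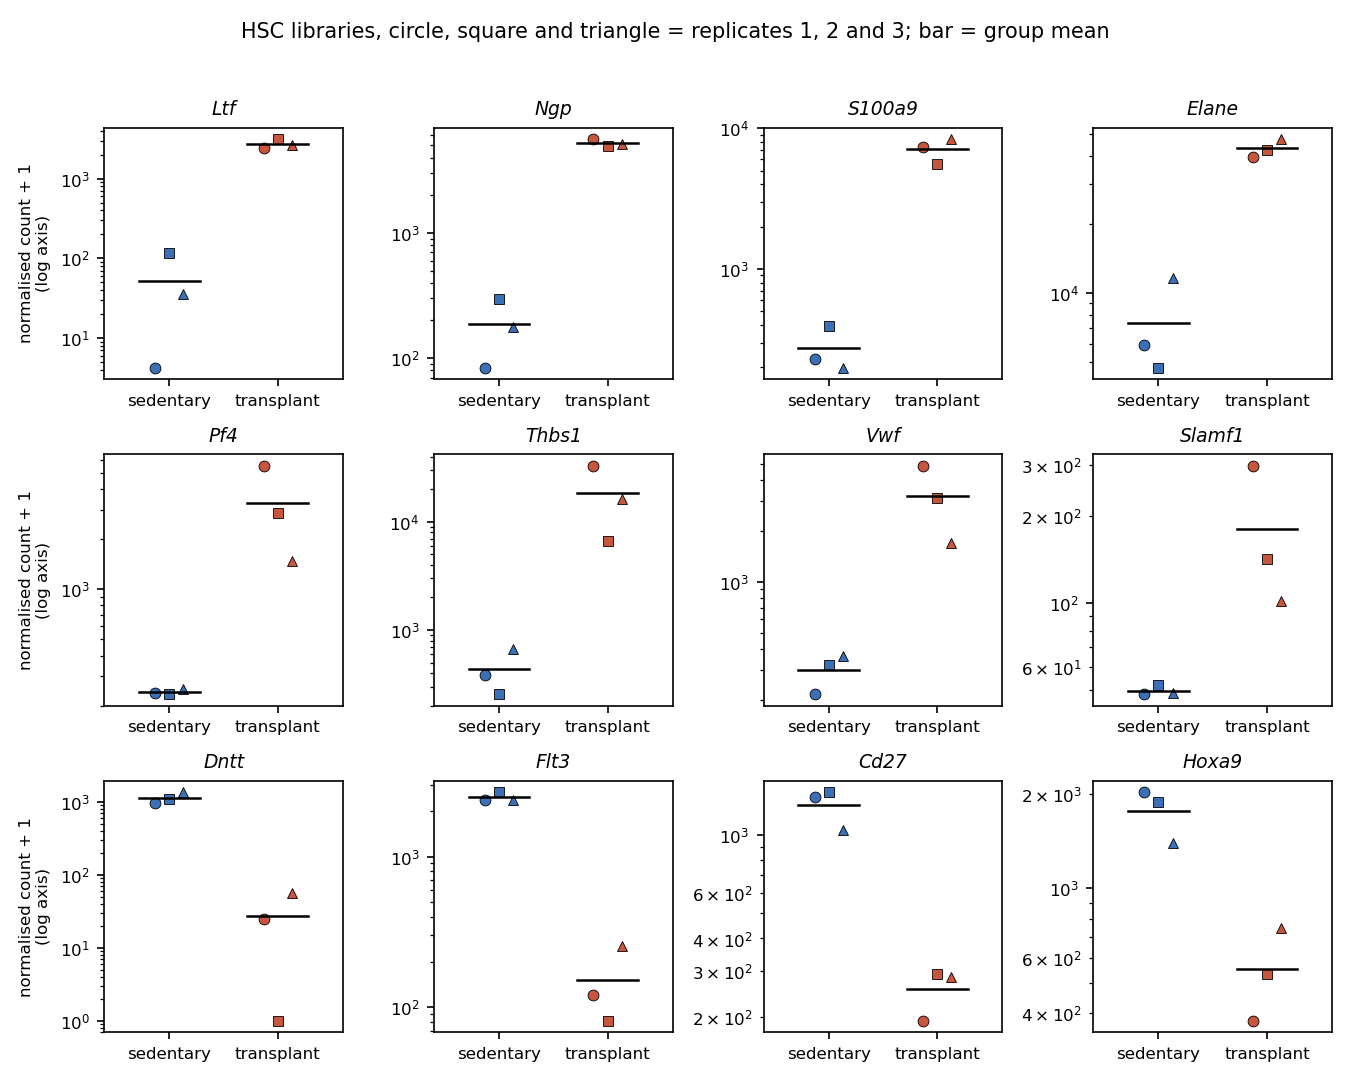
Normalised count + 1 on a log axis for 12 genes in the 3 sedentary (blue) and 3 transplant (red) HSC libraries, with circle, square and triangle for replicates 1, 2 and 3 and a bar at the group mean. Transplant libraries lie above sedentary ones for Ltf through Slamf1 and below them for Dntt, Flt3, Cd27 and Hoxa9, with no overlap in any panel.

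Promoter sequences were read for genes of these lists because several members moved together. They come from RefSeq on GRCm38.p6 and span 250 bases before to 50 bases after each gene start. A C/EBP-type motif was searched as TTGCNNAA on both strands, where N is any base. It occurred in 9 of the 19 promoters available for the 24 secondary and tertiary granule genes that rose (47.4%). The share was 8.34% of the 10066 promoters of genes tested and 10.7% of all 27025 promoters of the same length. The same motif was in 2 of 11 promoters of primary granule genes that rose (18.2%), 2 of 12 of platelet genes that rose (16.7%) and 1 of 10 of lymphoid priming genes that fell (10%). An ETS-type motif, AGGAAGT on either strand, occurred in 6 of 11 promoters of the primary granule genes (54.5%), those of Mpo, Elane, Prtn3, Ctsg, Cst7 and Lyz2. It was also in 31.6% of the secondary and tertiary granule promoters, 30% of the lymphoid and 8.33% of the platelet promoters, against 9.28% of promoters of genes tested and 9.52% of all promoters. A GATA-type motif, AGATAA on either strand, occurred in 7 of the 19 secondary and tertiary granule promoters (36.8%), 4 of the 12 platelet promoters (33.3%), 2 of the 10 lymphoid promoters (20%) and none of the 11 primary granule promoters. Its share was 6.47% of promoters of genes tested and 11.4% of all promoters. A RUNX-type motif, TGTGGT on either strand, was in 36.4% of primary granule, 31.6% of secondary and tertiary granule, 30% of lymphoid and 8.33% of platelet promoters, against 12.8% of promoters of genes tested and 16.9% of all promoters. The shares were not compared by a test. A match describes the letters only. The 3 promoters below, of genes in the secondary and tertiary granule list, are printed 5′ to 3′ on the gene's strand with C/EBP-type matches in capitals. They are at chr9:111019042-111019341 on the plus strand for Ltf, chr9:110419558-110419857 on the plus strand for Ngp and chr3:90695672-90695971 on the minus strand for S100a9.
Ltf: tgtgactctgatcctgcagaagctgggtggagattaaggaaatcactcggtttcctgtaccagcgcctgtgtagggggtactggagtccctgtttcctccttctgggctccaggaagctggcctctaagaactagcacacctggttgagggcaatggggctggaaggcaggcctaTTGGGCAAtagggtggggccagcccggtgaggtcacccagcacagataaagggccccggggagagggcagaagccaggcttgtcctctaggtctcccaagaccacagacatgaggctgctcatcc
Ngp: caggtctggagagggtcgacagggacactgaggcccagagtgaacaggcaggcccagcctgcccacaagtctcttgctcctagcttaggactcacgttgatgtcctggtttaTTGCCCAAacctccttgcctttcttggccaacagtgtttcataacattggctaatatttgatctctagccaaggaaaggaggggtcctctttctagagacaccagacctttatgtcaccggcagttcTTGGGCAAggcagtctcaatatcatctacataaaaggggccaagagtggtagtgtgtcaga
S100a9: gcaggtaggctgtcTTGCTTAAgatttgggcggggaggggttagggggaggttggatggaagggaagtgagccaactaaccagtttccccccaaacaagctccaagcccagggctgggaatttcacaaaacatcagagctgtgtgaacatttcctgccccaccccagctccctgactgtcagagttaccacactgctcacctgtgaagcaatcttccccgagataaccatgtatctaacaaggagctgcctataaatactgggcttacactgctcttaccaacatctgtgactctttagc

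The primary granule promoters of Elane, at chr10:79886062-79886361 on the plus strand, and Mpo, at chr11:87793534-87793833 on the plus strand, are shown with the ETS-type match in capitals.
Elane: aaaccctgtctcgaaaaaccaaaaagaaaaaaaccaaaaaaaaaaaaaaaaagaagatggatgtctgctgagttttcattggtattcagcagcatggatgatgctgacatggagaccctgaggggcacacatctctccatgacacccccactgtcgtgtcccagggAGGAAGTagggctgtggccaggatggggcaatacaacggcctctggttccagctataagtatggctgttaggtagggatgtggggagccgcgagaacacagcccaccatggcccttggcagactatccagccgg
Mpo: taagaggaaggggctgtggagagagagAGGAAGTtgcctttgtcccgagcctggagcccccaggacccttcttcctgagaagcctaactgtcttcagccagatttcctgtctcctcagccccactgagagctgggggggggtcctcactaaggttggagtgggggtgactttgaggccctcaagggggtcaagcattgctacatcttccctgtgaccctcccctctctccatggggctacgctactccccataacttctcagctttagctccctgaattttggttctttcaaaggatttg

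Transcription factors of the myeloid branch rose in 7 of 18 cases and fell in 1, with a median of 0.67. Cebpe, which encodes C/EBP epsilon, had 3116, 2248 and 1575 normalised counts in transplant HSC against 210, 163 and 370, a log2 fold change of 3.25 (SE 0.38, adjusted p = 0.0119). The transplant values of Cebpe were apart from the sedentary ones in all libraries and lowest in replicate 3. Gfi1 rose by 1.52, Cebpa, the factor that opens the granulocyte-monocyte branch, by 0.86, and Klf4 by 1.11. Myc, a driver of growth and ribosome production, fell by 0.66 on the log2 scale. Spi1, which encodes PU.1, was at 0.30 (adjusted p = 0.165) and Cebpb at 0.19 (adjusted p = 0.788).

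Megakaryocyte and platelet genes rose in 16 of 22 cases, none fell and the median was 2.54. Thbs1, thrombospondin 1 of platelet alpha granules, had 32954, 6628 and 16299 normalised counts in transplant HSC and 383, 254 and 670 in sedentary HSC, a log2 fold change of 5.24 (SE 0.66, adjusted p = 0.0133). Transplant libraries differed widely among themselves for Thbs1, yet the lowest was far above every sedentary library. Ppbp, the pro-platelet basic protein chemokine, stood at 2904, 1160 and 854 against 61.7, 49.0 and 44.6 (4.77, SE 0.46, adjusted p = 0.00903). Its neighbour on chromosome 5, Pf4 (platelet factor 4), stood at 5517, 2874 and 1468 against 237, 233 and 252 (3.56, SE 0.47, adjusted p = 0.0147). For Ppbp and Pf4 sedentary libraries were nearly level and transplant replicate 1 was the highest. Outside the list, Slc6a4 and Gja5 were among the 12 largest rises picked by the rule for named genes. Slc6a4, the serotonin transporter, rose by 5.99, from at most 10.4 in any sedentary library to 701, 289 and 114. Gja5, the gap junction protein connexin 40, rose by 4.87.

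The receptor for von Willebrand factor was covered by Gp9 at 3.56, Gp1ba at 2.5, Gp1bb at 2.27 and Gp5 at 2.44, all of which rose. Itga2b, the CD41 integrin chain, rose by 2.01, and Itgb3, its partner, was at 1.74 (adjusted p = 0.0546). Alox12, platelet 12-lipoxygenase, had 115, 49.8 and 15.8 normalised counts in transplant HSC, while sedentary HSC were at or under 3 reads per library. Against that floor Alox12 was at least 15.6-fold higher. The median of the platelet list was 1.30 in replicate 3 alone, below the 3.24 of replicates 1 and 2, and transplant replicate 3 was the lowest of its group for Pf4, Ppbp, Vwf and Slc6a4. Clec1b, the podoplanin receptor of platelets, had 349, 147 and 23.9 against 9.74, 1.75 and 6.44 and did not pass (adjusted p = 0.0581). The promoter of Pf4, at chr5:90772185-90772484 on the plus strand, is shown with 2 matches in capitals, an ETS-type match (ACTTCCT, the reverse complement of AGGAAGT) and a GATA-type match (AGATAA). Among the 12 platelet promoters the ETS-type motif was in that of Pf4 alone, and the GATA-type motif was in 4 of the 12.
Pf4: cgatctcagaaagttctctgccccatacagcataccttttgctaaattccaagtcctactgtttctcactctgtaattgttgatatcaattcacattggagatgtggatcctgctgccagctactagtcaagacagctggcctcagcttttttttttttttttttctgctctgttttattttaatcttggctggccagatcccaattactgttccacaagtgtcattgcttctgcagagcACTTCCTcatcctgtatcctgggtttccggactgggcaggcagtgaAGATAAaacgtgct

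Lymphoid priming genes went the other way, with 12 of 24 lower, 1 higher and a median of -1.23. Dntt, terminal transferase, had 966, 1112 and 1354 normalised counts in sedentary HSC and 23.8, 0 and 56.0 in transplant HSC, a log2 fold change of -6.66 (SE 1.48, adjusted p = 0.0443). Transplant replicate 2 held no Dntt read, and every transplant library was below every sedentary one. Flt3, the cytokine receptor of multipotent progenitors, had 2355, 2668 and 2375 in sedentary HSC and 119, 80.2 and 256 in transplant HSC (-4.18, SE 0.42, adjusted p = 0.00903). By TPM, Flt3 ranked 3702 in sedentary and 9798 in transplant HSC among 12752 genes. Cd27, a receptor of the TNF family on multipotent progenitors and lymphocytes, stood at 1400, 1453 and 1038 in sedentary and 192, 290 and 284 in transplant HSC (-2.35, SE 0.22, adjusted p = 0.00884). Neither Flt3 nor Cd27 overlapped between groups.

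The recombinase genes Rag1 and Rag2 fell by 4.50 and 4.72 on the log2 scale from sedentary levels of at most 122 and 61.4. Il7r, the interleukin 7 receptor, fell by 2.87, and Irf8, a factor of the dendritic cell, monocyte and B cell branches, by 1.48. Satb1, Bcl11a and Tcf4, nuclear factors active in lymphoid and plasmacytoid dendritic cell development, fell by 1.45, 1.00 and 0.85. Ets1 was the 1 member that rose, from 182, 192 and 301 to 577, 485 and 831 (1.48, SE 0.28, adjusted p = 0.0324). Ikzf1 and Notch1 were at -0.36 and 0.27 and did not pass (adjusted p = 0.106 and 0.393). In replicate 3 alone 21 of the 24 members were below sedentary HSC and the median was -1.16.

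**Figure D3:**
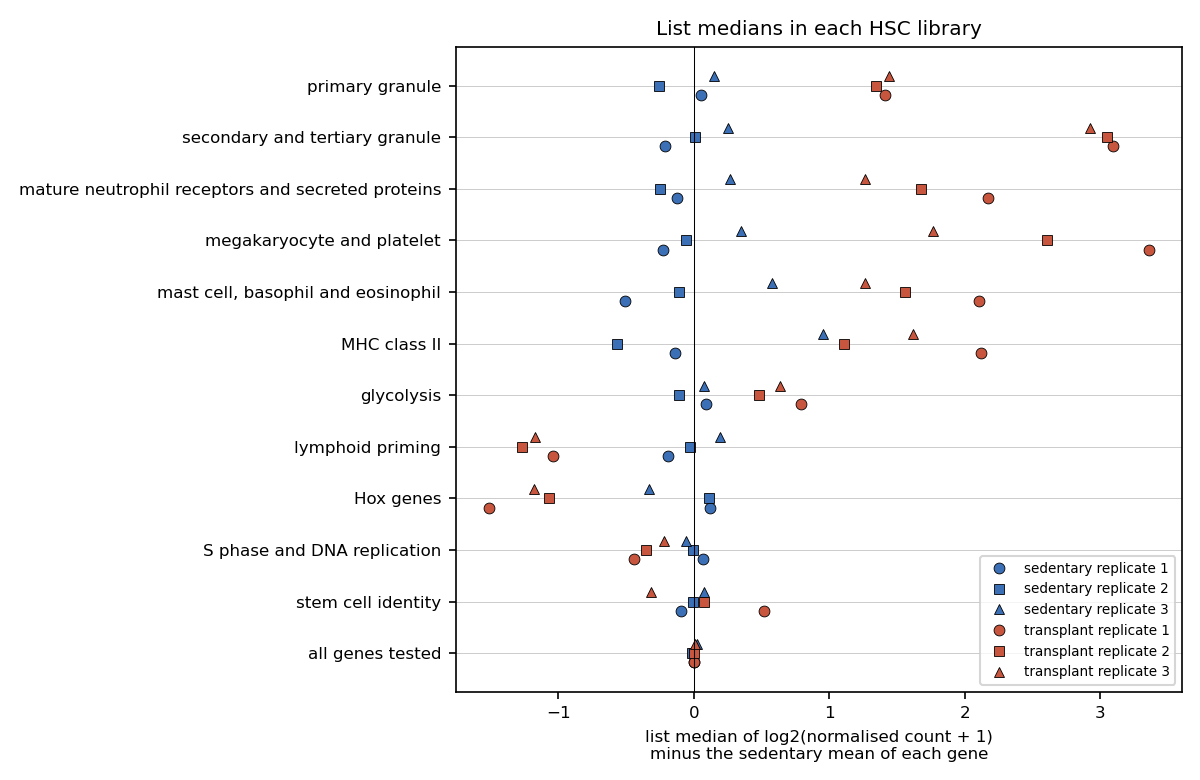
Median over a list's tested members of log2(normalised count + 1) minus the gene's sedentary mean (x axis) in each of the 6 HSC libraries, for 11 lists and all genes tested (y axis), with sedentary in blue, transplant in red and circle, square and triangle for replicates 1, 2 and 3. Transplant libraries are above sedentary ones for the granule and platelet lists and below them for lymphoid priming and Hox genes, the groups overlap for stem cell identity, and all genes tested lie near 0.

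Among 29 genes of stem cell identity, 1 rose and 5 fell, and the median was 0.03, close to that of all genes. Prdm16, a chromatin factor needed for HSC maintenance, had 115, 198 and 116 normalised counts in sedentary HSC and 8.41, 6.07 and 17.4 in transplant HSC (-3.70, SE 0.41, adjusted p = 0.0105). Hlf, a transcription factor of the most primitive cells, had 679, 791 and 707 against 303, 309 and 387 in transplant HSC (-1.13, SE 0.14, adjusted p = 0.0136). Mecom, which encodes EVI1, fell by 1.23 and Ndn, the growth suppressor necdin, by 3.41. These genes were lower in every transplant library. Slamf1 was the member that rose, at 297, 141 and 101 against 47.1, 50.8 and 47.6 (1.72, SE 0.39, adjusted p = 0.0472). Meis1 (-0.54), Gata2 (0.57) and Procr (-0.58) did not pass. The list's median was 0.34 in replicates 1 and 2 and -0.50 in replicate 3, and edgeR called 4 members higher and 5 lower.

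Hox genes had a median of -1.38 over 11 tested, with 4 lower and 1 higher. Hoxa9, a homeobox factor of stem and progenitor self-renewal, stood at 2024, 1889 and 1391 in sedentary and 377, 533 and 747 in transplant HSC (-1.71, SE 0.29, adjusted p = 0.0235). Its neighbours Hoxa7, Hoxa5 and Hoxa2 fell by 2.20, 1.38 and 1.67, and Hoxa10 was at -2.19 (adjusted p = 0.0561). These 5 genes lie on chromosome 6 between positions 52162417 and 52240854 of GRCm38.p6. Of the Hoxb genes tested, Hoxb2, Hoxb3 and Hoxb4 did not pass, at 1.13, -0.16 and 0.11.

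Among 30 DNA methylation and chromatin regulators, 4 fell, none rose and the median was -0.22. Dnmt3b, a de novo DNA methyltransferase, had 2896, 3432 and 3281 normalised counts in sedentary and 1107, 1159 and 1242 in transplant HSC (-1.45, SE 0.12, adjusted p = 0.00685). Cbx2, a Polycomb reader, Hmga2, a chromatin architectural protein of young stem cells, and Hdac9 fell by 1.41, 1.23 and 1.08. Dnmt3a and Dnmt1 were at -0.13 and -0.21 and did not pass.

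Genes known to be higher in HSC of old mice gave 10 higher and 1 lower of 28, with a median of 0.94. Aldh1a1, a retinaldehyde dehydrogenase, stood at 209, 199 and 169 in transplant HSC and 34.1, 36.8 and 39.6 in sedentary HSC (2.35, SE 0.13, adjusted p = 0.00496). Within each group the Aldh1a1 values were close, and the groups were well apart. Vwf, von Willebrand factor, had 4850, 3104 and 1695 against 214, 320 and 365 (3.33, SE 0.42, adjusted p = 0.0136). Clu, the chaperone clusterin, rose by 2.76, Cd38 by 1.73, Selp, P-selectin, by 1.68 and Gda, guanine deaminase, by 1.57. Ramp2 was at or under 3 reads in every transplant library and was at least 4.55-fold lower there. Several of these genes, Vwf, Selp and Clu among them, are also made by megakaryocytes or platelets. The transplant libraries were taken later than the sedentary ones, at week 14 against week 12, and any part of the week in these values was not tested.

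The remaining genes with the largest decreases were not in the lists. Klhl30, Kcng1, Cox6a2, Shisa8, Mn1, Cdh17, Moxd1 and Gfra1 fell, with log2 fold changes of -4.98, -4.69, -4.55, -4.40, -3.75, -3.75, -3.71 and -3.36. Moxd1, a monooxygenase-like protein, had 250, 329 and 191 normalised counts in sedentary HSC and 23.8, 15.8 and 16.2 in transplant HSC (SE 0.26, adjusted p = 0.00501). Mn1, a transcriptional coregulator of early progenitors, went from 221, 350 and 378 to 32.2, 13.4 and 24.3 (SE 0.37, adjusted p = 0.00903). Both genes were lower in all transplant libraries than in any sedentary library. Gfra1 is the co-receptor of the ligand GDNF, and Kcng1 a subunit of voltage-gated potassium channels.

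Cytokine and growth factor receptors moved both ways, with 6 of 30 higher, 4 lower and a median of 0.20. Csf2ra and Csf2rb, the chains of the receptor for granulocyte-macrophage colony-stimulating factor, rose by 1.49 and 0.61, Il3ra by 0.86 and Il10ra by 1.31. Il18r1, Il4ra, Il27ra and Il6st fell by 2.15, 0.84, 0.71 and 0.66. Among 29 homing and adhesion receptors 4 rose and 2 fell, with a median of 0.13. Itgam and Itgb2, the chains of the Mac-1 integrin of myeloid cells, rose by 3.02 and 1.58. Cd34, the sialomucin of progenitors, stood at 17589, 17857 and 14167 in sedentary and 8332, 6827 and 5889 in transplant HSC (-1.24, SE 0.18, adjusted p = 0.0165). Cxcr4, the receptor that holds HSC in the marrow niche, was at 0.51 and did not pass (adjusted p = 0.0585).

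Cell-cycle lists gave few calls by limma. Of 32 S phase and DNA replication genes, 1 passed and was lower, Ung (-0.63, adjusted p = 0.0402), the median was -0.32 and 29 members had negative fold changes. With edgeR 8 of these genes were lower and none higher, DESeq2 called 12 and limma-voom 10, and 15 had an unadjusted p-value under 0.05. Transplant values lay below sedentary ones without overlap at 16 of the 32 and above at 3. The shares over all genes tested were 18.4% and 20.3%. Mcm2, a helicase subunit, had 17038, 16420 and 16091 normalised counts in sedentary and 10625, 12467 and 13411 in transplant HSC, without overlap, and did not pass (adjusted p = 0.073). None of 25 mitosis genes passed by limma, and their median was -0.05. At an unadjusted p-value under 0.05 there was 1, DESeq2 called 1 and edgeR and limma-voom none. Cdkn2a, the p16 and ARF locus, rose by 3.62 from at most 1.98 to 29.4, 13.4 and 11.8, which are low levels. Ccnd1 was at -2.37 (adjusted p = 0.0606), and transplant replicate 3 was close to sedentary replicate 3 for it, at 430 and 572. Of 24 p53 targets, Gadd45a rose by 1.23, and Cdkn1a was at 0.35 and did not pass.

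Glycolysis genes rose in 9 of 21 cases, none fell and the median was 0.62, with 0.58 in replicate 3 alone. Slc16a3, the lactate exporter MCT4, had 10330, 5970 and 7536 normalised counts in transplant HSC and 958, 571 and 1170 in sedentary HSC (3.17, SE 0.33, adjusted p = 0.0101). Hk3, a hexokinase of myeloid cells, rose by 1.29, Eno1, an enolase, by 0.89, Gpi1 by 0.84 and Slc2a1, the GLUT1 transporter, by 0.56. Ldha and Gapdh were at 0.19 and 0.29 and did not pass. The listed respiratory chain genes gave no call by limma, with medians of 0.00 over 37 genes of complex I and 0.01 over 39 genes of complexes II to V. Cox6a2, a complex IV subunit gene outside these lists, was called lower (log2 fold change -4.55, adjusted p = 0.0296). In complex I, 1 gene had an unadjusted p-value under 0.05, and edgeR, DESeq2 and limma-voom each called 1. In complexes II to V none did, and DESeq2 called 1 and the other tools none. Of 50 cytosolic ribosomal protein genes, 0 passed by limma, 0 had an unadjusted p-value under 0.05 and edgeR, DESeq2 and limma-voom called none, with log2 fold changes from -0.14 to 0.15.

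Of 25 oxidative stress and glutathione genes 5 rose and 1 fell, with a median of 0.16. Mgst2 and Mgst1, microsomal glutathione transferases, rose by 2.92 and 2.11, and Gstm1 by 2.52. Txnrd1, thioredoxin reductase, fell by 0.62. In the leukotriene pathway 5 of 10 genes rose, among them Alox5 by 2.28, Ltb4r1, the leukotriene B4 receptor, by 1.94 and Lta4h by 1.08. Of 10 genes of retinoid metabolism and signalling 3 rose, Aldh1a1, Dhrs3 and Rdh12, and none of the retinoic acid receptor genes passed. Among 20 Toll-like receptors and adaptors 6 rose and none fell, with Tlr6 at 2.08, Tlr8 at 1.84 and Tlr1 at 1.83, while Tlr4 was at 1.31 (adjusted p = 0.0633) and Myd88 at -0.15 (adjusted p = 0.48).

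Type I interferon targets gave 6 higher and 1 lower of 27, with a median of 0.53. Ifit2, a translation inhibitor induced by interferon, had 751, 764 and 742 normalised counts in transplant HSC and 361, 320 and 405 in sedentary HSC (1.06, SE 0.12, adjusted p = 0.0114). Rsad2 and Usp18 rose by 1.86 and 1.44, and Rtp4 fell by 2.05. Of 16 GTPases induced by interferon gamma, Tgtp2 fell by 0.81, and its reads may be split with its near-identical neighbour Tgtp1. Of 16 MHC class I and immunoproteasome genes, H2-Q7 rose by 0.89, and it too belongs to a family of near-identical genes. None of 10 MHC class II genes passed by limma, although their median was 1.62, 8 had an unadjusted p-value under 0.05 and edgeR, DESeq2 and limma-voom each called 4. H2-Ab1 had 837, 350 and 448 against 53.6, 50.8 and 222, and sedentary replicate 3 was the highest of its group (2.57, adjusted p = 0.0597). Immediate early genes, which respond to handling as well as to signals, rose in 4 of 22 cases, with a median of 0.63 overall and -0.06 in replicate 3 alone.

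**Figure D4:**
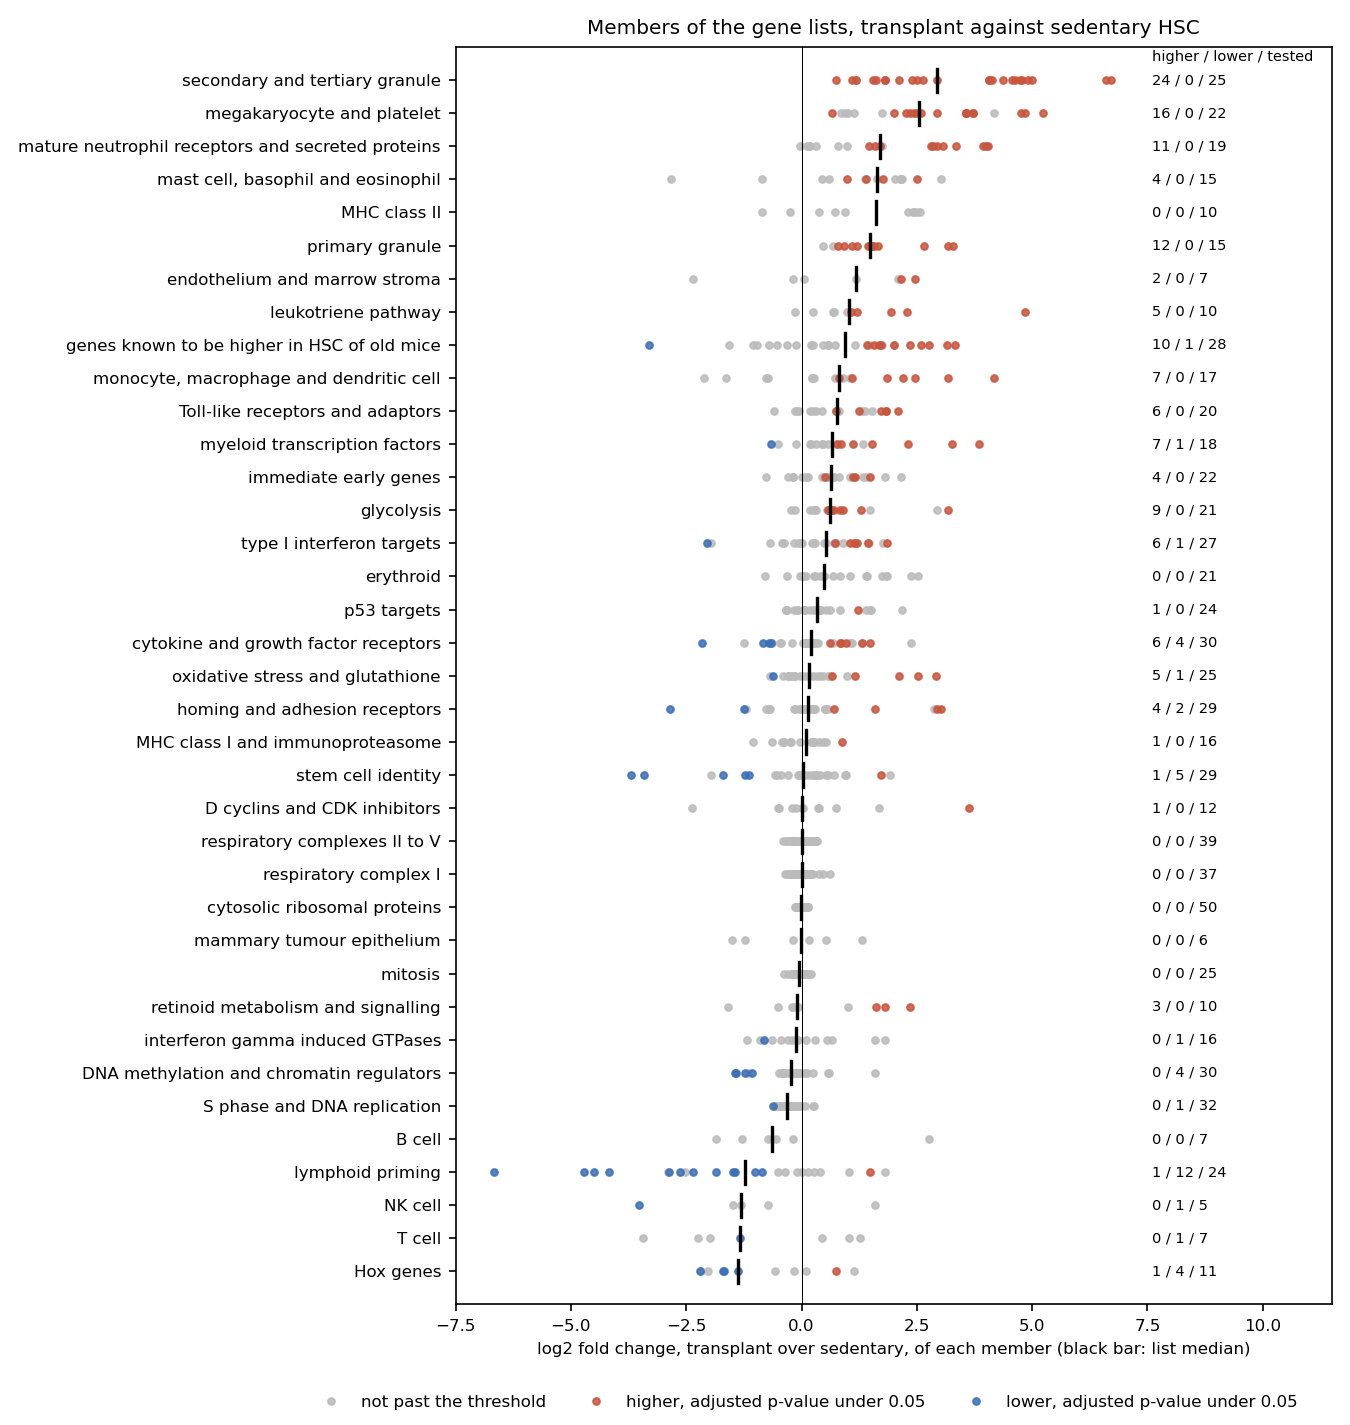
Log2 fold change of transplant over sedentary HSC for each tested member (points) of 37 gene lists (y axis), with red for higher and blue for lower at an adjusted p-value under 0.05, grey for not past it, a black bar at the list median and the numbers higher, lower and tested at the right. The granule, platelet and neutrophil lists lie to the right, lymphoid priming and Hox genes to the left, and ribosomal and respiratory lists close to 0.

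Markers of other blood cells that a sort could hold were summed in each library. The 22 megakaryocyte and platelet markers summed to 14502 to 22384 normalised counts in sedentary HSC and 46244 to 107180 in transplant HSC. Monocyte, macrophage and dendritic cell markers, 17 in the tables, summed to 24857 to 27595 and 36146 to 38730. Of them 7 rose and 0 fell by limma, while 4 had negative fold changes, the lowest at -2.11, and edgeR called 1 lower. Ccr2, a chemokine receptor in this list, had 15725, 14292 and 10322 normalised counts in sedentary HSC and 6064, 7137 and 10871 in transplant HSC. Ly6c2, the surface antigen of inflammatory monocytes, rose by 3.16 and Emr1, the F4/80 antigen, by 2.20. C1qb, a complement chain of macrophages, had 32.2, 26.7 and 30.0 normalised counts in transplant HSC against 0, 0 and 3.96. Mast cell, basophil and eosinophil markers, 15 in all, summed to 2490 to 5958 and 7398 to 18187, with Fcer1a, Prss34, Siglecf and Mcpt8 higher by 2.51, 1.76, 1.40 and 0.99. By limma 0 of the 15 fell, and 2 had negative fold changes, the lowest at -2.84. The part of these markers in the granule, platelet and other results was not tested.

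Erythroid markers summed to 23424 to 33084 in sedentary and 26125 to 29527 in transplant HSC, overlapping ranges. None of the 21 passed by limma, edgeR and DESeq2 called 2 each and limma-voom none. An unadjusted p-value under 0.05 was reached by 8 of the 21, beside 4236 of all 13348 genes tested. Summed B cell markers, 7 of them, lay between 369 and 413 in sedentary and between 205 and 356 in transplant HSC. None passed by limma, 2 had an unadjusted p-value under 0.05, DESeq2 called 1 and edgeR and limma-voom none. Cd79a, Ms4a1, Pax5, Cd3e, Cd4 and Cd8a have no joined row and were not analysed here. Summed T cell markers, 7 of them, lay between 666 and 1165 in sedentary and between 651 and 2052 in transplant HSC, and summed NK cell markers, 6 of them, between 210 and 564 and between 562 and 1253. Of each list 1 gene passed, Lck and Il2rb, both lower. Gzmb, granzyme B, had 1232, 616 and 539 normalised counts in transplant HSC against 148, 208 and 472 in sedentary HSC and did not pass (adjusted p = 0.102). Lat, an adaptor of the T cell receptor, had 1347, 817 and 338 against 224, 292 and 398 and did not pass (adjusted p = 0.165). By edgeR both were higher, with adjusted p-values of 0.0422 for Gzmb and 0.0448 for Lat. Summed markers of mammary epithelium overlapped between groups, at 390 to 863 and 735 to 1013, and none of 6 passed by limma, with 2 at an unadjusted p-value under 0.05 and 1, 2 and 1 called by edgeR, DESeq2 and limma-voom. Endothelial and stromal markers also overlapped in their sums, at 598 to 1472 and 1006 to 2153, and Flt1 and Col1a1 rose by 2.15 and 2.45.

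HSC of physically active mice at week 12 did not form a single level for these genes. Ltf had 1098 normalised counts in active replicate 1 and 56.5 in active replicate 3. The column numbered 6, labelled active replicate 2, held 23059 in the table with the sedentary libraries and 115 in the table with the transplant libraries, and differed between the tables at 13105 of 13399 symbols, so that at most 1 of these columns can be that library. Flt3 stood at 985 in active replicate 1, 1588 in replicate 3, and 60.0 and 2129 in the columns numbered 6. Prdm16 was at 80.6 and 148 in active replicates 1 and 3, and at 121 and 133 in the columns numbered 6, above every transplant library. These values are given for context and entered no test beside the alternative below.

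The counts of calls depended on single libraries and on the spread model. Leaving out transplant replicate 1 or 2 left 475 or 253 calls and leaving out sedentary replicate 1 or 2 left 266 or 204, whereas leaving out replicate 3 of either group left 1722 and 1498; 143 of the 1553 genes passed in all 6 of these fits. Of the 128 genes named here that passed, 27 did so in all 6 fits, among them Ngp, S100a8, S100a9, Chil3, Cd177, Lcn2, Ppbp, Gfi1, Slc16a3, Ly6c2, Flt3, Cd27, Irf8, Moxd1, Mn1, Prdm16, Dnmt3b and Aldh1a1. Between 16 of the 128, without transplant replicate 3, and 95, without sedentary replicate 2, lost the call. None changed direction, which the lack of overlap between the groups largely fixes. Ltf lost it without transplant replicate 1 or 2 (adjusted p up to 0.0887), Mpo without sedentary replicate 1 (0.05), Thbs1 without sedentary replicate 1 or 2 (up to 0.0589), and Elane, Pf4, Vwf and Hlf without transplant replicate 2 or sedentary replicate 1 or 2 (up to 0.0663). Cebpe lost it without transplant replicate 2 or sedentary replicate 1 (up to 0.057), Hoxa9 without replicate 1 or 2 of either group (up to 0.0938), Dntt without transplant replicate 1 or any sedentary replicate (up to 0.143) and Slamf1 without transplant replicate 2 or any sedentary replicate (up to 0.143). Il6st, Lck and Tgtp2 lost it in all 6 fits. When the active libraries were added as another group that shares the estimate of spread, 3 genes passed. For active replicate 2 this group held the column numbered 6 from the table with the sedentary libraries, which may not be that library. With the values scaled as deposited, the median over all genes moved by 0.13 on the log2 scale, and 1580 genes were higher and 321 lower, 83.1% higher among the called genes against 68.2% here.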

How the data were processed

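RNA was measured by sequencing of bulk libraries from freshly sorted HSC, made with a stranded mRNA kit per the labels' protocols; that counting used strand is not given in the sources used here. The authors deposited a normalised signal per gene and library, in 1 table with the sedentary and active libraries and 1 with the transplant and active libraries. All deposited values of a column were whole multiples of 1 step (100% within a tolerance of 0.01), so they are gene counts divided by a factor per library, and whole reads were recovered from them. The submitters' processing notes name the mm10 build; the aligner, counter and annotation are not given in the sources used here.

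Both tables were joined on 13399 symbols held once in each, of 13636 and 13513, which hold at least 99.9953% of the reads of every library. The 6 libraries were scaled together by the median of ratios. Genes whose mean value reached 1 in at least 1 of the groups were tested with limma 3.58.1 (lmFit and eBayes, no trend) in R 4.3.3 on log2(value + 1), with Benjamini-Hochberg adjustment and a threshold of 0.05. A group with at most 3 reads in each library was treated as at the floor, which covers counting error only. The procedure was tested on simulated counts. Alternatives covered scaling, filters, pseudocounts, thresholds, limma-voom, edgeR 4.0.16 and DESeq2 1.42.0 on the recovered reads, a replicate block, a term for replicate 3, and leaving out each library.

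Genes were named first by size of change, 12 upward and 12 downward, from called genes whose groups did not overlap and whose higher group had a mean of 50 or more. Date-like symbols, gene models and the 4 genes that differed between tables were left out. Members of 37 gene lists follow, with their calls; a few members are counted but not reported here by name. The members and lists were chosen with earlier results of these data known, so they lend the directions no independent support, and lists were described by counts and medians beside those of all genes, with no set test. Some genes are in more than 1 list, such as Aldh1a1 and Alox12. Gene spans, exon lengths and promoters came from reference tables on GRCm38.p6, the assembly behind mm10, matched by symbol, with exon lengths from GENCODE M21. Tumour tables were not used.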

Additional observations from a re-analysis of the deposited data

How the results depend on the processing

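The 1553 calls, 1059 higher and 494 lower, depended on the spread model more than on scaling. By scaling, TMM or library totals stayed within 1.5 times of each count, and values as deposited gave 321 lower. Pseudocount 10 gave 708 calls lower. Calls in all, higher and lower were 2569, 1596 and 973 with edgeR, 3187, 1863 and 1324 with DESeq2, 2778, 1677 and 1101 with trend and robust options, and 876 lower with limma-voom. With a term for replicate 3 there were 316 lower, and with replicates 1 and 2 alone 2202 in all. At an adjusted p-value of 0.01 there were 121, 86 and 35 calls, and with a change of at least 1 on the log2 scale as well 976 in all and 247 lower. Adding the active libraries left 3 calls, 1 higher and 2 lower; the cause was not tested. Leaving out 1 library gave 204 to 1722 calls, 157 to 1109 higher and 47 to 627 lower.

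Deviations from the group means of libraries with the same number correlated across genes at -0.11, 0.16 and 0.05, which gave no consistent pairing by replicate number. Replicate 3 of both groups nevertheless lay together on the second principal component, at 42.4 and 31.5, against -14.7 to -20.8 in the rest. Whether replicate 3 of both groups shared a batch was not tested. With the replicate number as a block, which leaves fewer degrees of freedom, 99 genes passed, 81 higher and 18 lower, and 111 of the 128 named genes lost the call.

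Of the 128 named genes that passed, none changed direction under any of these settings, which the lack of overlap between their groups largely fixes. The call was kept in 1960 of 2682 fits and lost in 722. The 36 named genes that did not pass stayed so in 654 fits and passed in 100. List medians moved by less than the spread between libraries in 726 of 777 fits. Depth limits genes at or under 3 reads per library, for which fold changes are bounds.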

Other observations

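Symbols held in 1 table alone entered no comparison. The table with the transplant libraries held 235 such symbols, with at most 70 reads in any library, led by Rnase10, and the table with the sedentary libraries held 112, with at most 44 reads, led by Itga8. Rn45s, a ribosomal RNA precursor, was left out of the named genes for its difference between the tables. It took 0.194%, 0.162% and 0.331% of the reads of the transplant libraries and 0.0822%, 0.0874% and 0.409% of the sedentary libraries. Its share was highest in replicate 3 of both groups. Across the 13348 genes tested, the rank correlation of libraries, given as a description across genes, which are not independent replicates, was 0.983 to 0.993 within transplant HSC, 0.987 to 0.995 within sedentary HSC and 0.955 to 0.982 between groups.

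Active replicate 1 held values between those of sedentary and transplant HSC for some of the genes above. Ngp was at 2204 in it, S100a9 at 2653, Ppbp at 488, Dntt at 274 and Cox6a2 at 174 normalised counts. Hlf, at 348 in it, lay within the transplant range of 303 to 387. Active replicate 3 was at 443, 410, 154, 781, 158 and 791 for these 6 genes. Moxd1, at 172 and 163 in these libraries, was above every transplant library in both. No test was run on these values.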
